A study of Homo sapiens with 14 samples.

Results

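The RNA exosome core subunits are the 10 genes named EXOSC1 to EXOSC10, chosen by name from the 28307 gene names with values in the deposited gene tables. Their RNA was measured in A375 cells, a human melanoma line, by stranded sequencing of polyA-selected RNA in 14 libraries of 5 groups. The cells carry changes in ZC3H18, called Z18 by the study. Bulk control cells (n = 3) are wild type for ZC3H18 and were transiently transfected with an empty vector that expresses Cas9 with no guide RNA. Bulk CRISPR cells (n = 3) received the same kind of vector with 1 guide against ZC3H18, and both bulk groups were selected with puromycin. The bulk CRISPR cells are a mixed population, since no clone without ZC3H18 was obtained by the study. WT clones (n = 2) also passed through transfection with the vector without a guide, selection and single-cell cloning. The -/+ clones (n = 3), made with either of 2 guides, have lost ZC3H18 function on 1 allele, and the trunc/+ clones (n = 3) carry a truncating mutation on 1 allele. Per the study's methods, 1 trunc/+ clone came from repair with a donor template and the other 2 carry other truncations found in patients, while the labels name all 3 alike. All clones were made by transient transfection, antibiotic selection and limiting dilution. Each clone gave 1 library, so the spread among clones includes differences between clonal lines, and P-values measure only the spread between these libraries, which may be technical in part for the bulk groups. All values come from bulk RNA, in which fewer expressing cells and less RNA per cell cannot be told apart.

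The RNA exosome is the main machine that degrades and trims RNA from its 3′ end in the nucleus and cytoplasm. Its core is a barrel without catalytic activity in human cells, made of a ring of RNase PH-like proteins (EXOSC4 to EXOSC9) and a cap of S1/KH RNA-binding proteins (EXOSC1, EXOSC2 and EXOSC3), through which RNA is threaded. Catalysis comes from DIS3 or DIS3L at the base of the barrel and from EXOSC10 (RRP6), a nuclear 3′ to 5′ exonuclease at the cap side. In the nucleus the exosome matures ribosomal and small nucleolar RNA and removes promoter upstream transcripts, enhancer RNA and other unstable transcripts. ZC3H18 bridges the cap-binding complex to the adaptors NEXT and PAXT, which bring RNA to the exosome through the helicase MTREX (MTR4).

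Libraries held 15615675 to 33018360 aligned fragments. The gene tables give FPKM (fragments per kilobase of transcript and 1000000 fragments) and coverage but no counts, so no count test was run on genes. Coverage of the 10 genes ran from 46.2 (EXOSC10 in bulk control 2) to 1358 (EXOSC4 in bulk control 2). The bulk controls stood apart from the other groups. The median SD over all genes was 0.44 on the log2(FPKM + 1) scale in the bulk controls and 0.13 to 0.21 in the other groups. In bulk control 2, genes with short transcripts (under 2000 bases) lay above genes with long transcripts (over 5000 bases) by 1.17 on the log2 scale, against -0.38 to 0.26 in the other 13 libraries. In bulk control 3, GC-rich genes were high (median deviation 0.41) and GC-poor genes low (-0.39). For ZC3H18 itself the bulk controls read 38.1, 13.9 and 48.7 FPKM against 10.4, 11.9 and 12.8 after bulk CRISPR. The WT clones read 23.5 and 21.97, with 16.2, 17.1 and 16.1 for -/+ and 14.3, 13.98 and 8.70 for trunc/+. Each edited group lay below its control without overlap, except that bulk control 2 came close to bulk CRISPR. Of 7 melanocyte markers, SOX10 (10.8 to 212 FPKM) was found throughout, MLANA and TYR were listed at 0 in every library, PMEL stayed at or below 0.559 and DCT at or below 0.164. The summed level of the 7 was 13.9 to 39.3 FPKM in the bulk libraries and 65.0 to 310 in the clones. Markers of other cell types were near 0 (3 epithelial markers together at most 0.868, 3 endothelial markers at most 0.351), except LUM at 0.575 to 7.78 FPKM and CD68, which is not restricted to blood cells, at 13.7 to 70.3.

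Promoter sequence was searched because several members had lower values together in the comparisons below. RefSeq promoters (GRCh38.p14, 250 bases before to 50 bases after the start) were given for 8 of the 10 genes, all but EXOSC1 and EXOSC4. The E-box CACGTG, read on both strands, was found in EXOSC5 alone, at both places shown here with the motif in capitals. It is held by 7.26% of all 35116 promoters and 9.86% of the 11169 promoters of expressed genes. The CCAAT box was found in EXOSC2, EXOSC5, EXOSC9 and EXOSC10, and it is held by 34.6% of all promoters and 36.1% of those of expressed genes. EXOSC2 had 4 matches, of which the 2 nearest upstream of the start are shown (the second on the opposite strand, hence ATTGG). The ETS-type motif CCGGAAG was found in 0 of the 8, and it is held by 10.3% of all promoters and 19.4% of those of expressed genes. A match describes the letters only. The motif begins at base -89 or 14 (EXOSC5), -122 or -86 (EXOSC2), -76 (EXOSC9) and -93 (EXOSC10), counted from the start.
EXOSC5, chr19:41397433-41397458, minus strand: aacgctaagcCACGTGcggacgccca
EXOSC5, chr19:41397330-41397355, minus strand: actgcagccgCACGTGggctcggcgc
EXOSC2, chr9:130693628-130693652, plus strand: cttattgttgCCAATtgtaaacatg
EXOSC2, chr9:130693664-130693688, plus strand: gtgagttctcATTGGcagctgctct
EXOSC9, chr4:121801237-121801261, plus strand: ctggccttccCCAATcacgctttga
EXOSC10, chr1:11099948-11099972, minus strand: gcgccccaccCCAATcgcaggctcc

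All 10 genes were expressed in every library, and all 10 passed the filter on low values (1 FPKM or more, in 3 or more bulk libraries or in 2 or more clones) in each comparison. The lowest value was 9.31 FPKM (EXOSC10 in bulk control 2) and the highest 273 FPKM (EXOSC4 in bulk control 2). By the mean of the 14 libraries, in which the bulk controls weigh heavily, the order was EXOSC4 (97.3 FPKM), EXOSC5 (61.8), EXOSC3 (57.5), EXOSC8 (48.6), EXOSC2 (43.4), EXOSC7 (41.2), EXOSC9 (36.8), EXOSC10 (30.0), EXOSC1 (27.9) and EXOSC6 (16.8). Messages for subunits of 1 complex thus differed several-fold in level per length. The order differed between groups. EXOSC4 had a mean of 173 FPKM in the bulk controls but 65.4 to 68.9 in the clone groups, where EXOSC5 (68.1) came first in WT. EXOSC7 was at rank 4 in the bulk controls and 9 in trunc/+, and EXOSC8 at rank 5 in WT and 2 in trunc/+. Many neighbours overlapped. In bulk CRISPR, EXOSC3, EXOSC8, EXOSC2 and EXOSC7 overlapped from each to the next in rank, and so did EXOSC9, EXOSC10 and EXOSC1. EXOSC6 lay below all other members in bulk CRISPR and in each of the 3 clone groups, with ranges that did not overlap. In the bulk controls EXOSC6 (16.3 to 37.4 FPKM), EXOSC1 (17.1 to 34.9) and EXOSC10 (9.31 to 28.3) overlapped.

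**Figure D1:**
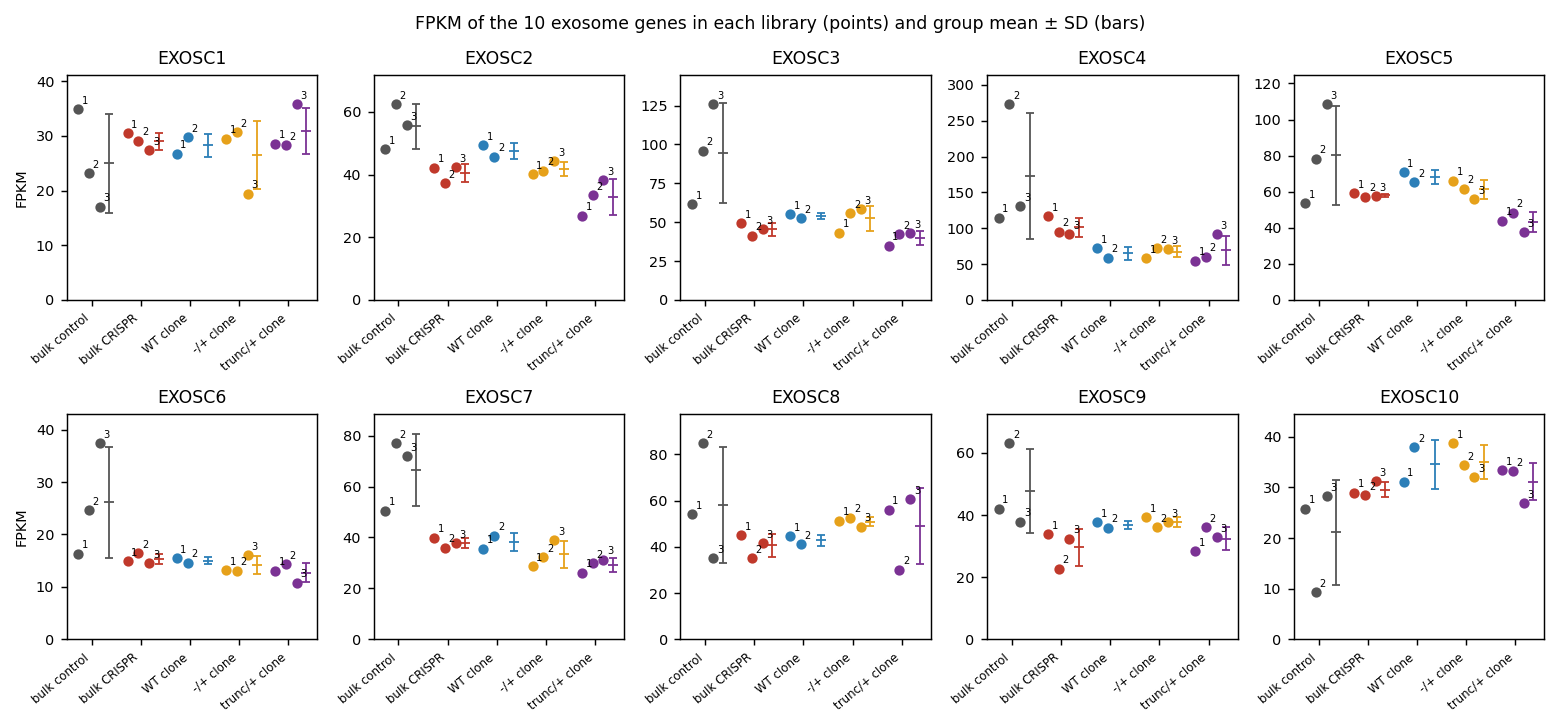
FPKM of each of the 10 exosome genes (y axis, from 0, 1 scale per panel) in the 14 libraries, grouped by cells on the x axis. Points are libraries, numbered by replicate, and bars give mean ± SD (n = 3, WT n = 2). The bulk controls spread most, as in EXOSC4 with 115, 273 and 131 FPKM, while EXOSC5 lay at 37.5 to 48.3 in trunc/+ and at 65.4 and 70.8 in WT.

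The cap subunits EXOSC2 and EXOSC3 were lower in all bulk CRISPR and trunc/+ libraries than in the matching controls, whereas the third cap subunit, EXOSC1, overlapped with them. None of these subunits was called in the separate fits of bulk cells and clones. Lower values without overlap were found for 10.4% of all genes in bulk CRISPR and 15.4% in trunc/+ against WT. EXOSC3 (chromosome 9, 37779714 to 37785092, minus strand) contains the S1 and KH folds of the cap. The bulk controls read 61.4, 95.9 and 126 FPKM, against 49.5, 41.2 and 45.5 after bulk CRISPR. The WT clones read 55.1 and 52.7, with 43.2, 55.8 and 58.4 for -/+ and 34.9, 42.2 and 42.8 for trunc/+. All bulk CRISPR libraries were below all bulk controls, and all trunc/+ clones were below every WT and -/+ clone, though -/+ clone 1 missed the highest trunc/+ clone by less than 1 FPKM. The share of all genes with trunc/+ below both other clone groups was not counted. EXOSC3 has the pseudogenes EXOSC3P1 and EXOSC3P2 by name and overlaps an unnamed gene model on its strand, and how shared reads were assigned is not stated in the sources used here.

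EXOSC2 (RRP4; chromosome 9, 130693760 to 130704894, plus strand) was the steadiest member within groups, with a pooled SD of 0.16 on the log2 scale. Its bulk controls read 48.0, 62.6 and 55.7 FPKM and its bulk CRISPR libraries 42.3, 37.3 and 42.3. WT clones read 49.4 and 45.7, -/+ clones 40.04, 41.2 and 44.3, and trunc/+ clones 26.9, 33.3 and 38.2. EXOSC2 was thus highest in WT, intermediate in -/+ and lowest in trunc/+ with no overlap between the clone groups, although none of these differences passed the test over all genes. Of all genes, 8.44% were lower without overlap in -/+ than in WT, 15.4% in trunc/+ than in WT and 6.45% in trunc/+ than in -/+. The share of all genes with the full order was not counted. EXOSC1 (CSL4; chromosome 10, 97435909 to 97446017, minus strand) ran from 17.1 to 34.9 FPKM among the bulk controls, 27.4 to 30.5 after bulk CRISPR, 26.8 to 29.8 for WT, 19.4 to 30.7 for -/+ and 28.3 to 35.9 for trunc/+ clones. These ranges overlapped in each comparison.

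Among the ring subunits, EXOSC7 and EXOSC9 were lower in all bulk CRISPR libraries and EXOSC5, EXOSC6 and EXOSC7 in all trunc/+ clones than in the matching controls. Without overlap, 10.4% of all genes were lower in bulk CRISPR, 15.4% in trunc/+ against WT and 6.45% in trunc/+ against -/+. None of these members was called in the separate fits of bulk cells and clones. EXOSC7 (RRP42; chromosome 3, 44976244 to 45012666, plus strand) read 50.5, 77.0 and 71.8 FPKM among bulk controls and 39.95, 35.95 and 37.8 after bulk CRISPR. Its WT clones read 35.6 and 40.7, its -/+ clones 28.7, 32.3 and 38.9, and its trunc/+ clones 26.1, 29.9 and 31.3. The trunc/+ clones were below WT but overlapped with -/+. EXOSC7 overlaps CLEC3B on the same strand in the annotation, so reads in the shared span could be split between them. EXOSC9 (chromosome 4, 121801323 to 121817021, plus strand), a further RNase PH-like subunit, read 42.0, 63.1 and 37.9 FPKM among bulk controls and 33.8, 22.8 and 32.3 after bulk CRISPR. Its WT clones read 37.8 and 35.98, its -/+ clones 39.2, 36.1 and 37.7, and its trunc/+ clones 28.4, 35.997 and 32.8, so trunc/+ lay below -/+ and reached WT.

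EXOSC5 (RRP46; chromosome 19, 41386374 to 41397359, minus strand) had the largest difference of any member among the clones. WT clones read 70.8 and 65.4 FPKM, -/+ clones 66.2, 61.8 and 55.9, and trunc/+ clones 44.01, 48.3 and 37.5. Among bulk controls it ran from 53.7 to 109, and the bulk CRISPR libraries, at 59.1, 57.2 and 57.6, lay inside that range. For EXOSC5 the bulk groups thus overlapped, with a lower mean in bulk CRISPR (log2 fold change -0.41), while trunc/+ lay below both other clone groups. Without overlap, 15.4% of all genes were lower in trunc/+ than in WT and 6.45% than in -/+. The difference of effects, bulk CRISPR minus trunc/+, was 0.24 for EXOSC5 (95% interval -0.46 to 0.94, adjusted p = 0.805 by limma). A different response in bulk cells and clones was therefore not shown. EXOSC6 (MTR3; chromosome 16, 70246778 to 70251940, minus strand), the lowest of the ring, read 15.5 and 14.6 FPKM for WT clones and 13.1, 14.3 and 10.8 for trunc/+ clones, with -/+ between 13.1 and 16.1. Its bulk controls ranged from 16.3 to 37.4 and its bulk CRISPR libraries from 14.5 to 16.4, which overlapped.

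EXOSC4 and EXOSC8 had the widest spread within groups among the ring subunits (pooled SD 0.39 and 0.40 on the log2 scale). EXOSC4 (RRP41; chromosome 8, 144078672 to 144080648, plus strand) has the shortest annotated transcript of the members (1065 bases) and the widest range over the libraries, 2.30 on the log2 scale. Bulk controls read 115, 273 and 131 FPKM and bulk CRISPR libraries 117, 95.1 and 91.8, while clones ran from 58.9 to 71.8 (WT), 58.3 to 72.2 (-/+) and 54.9 to 91.7 (trunc/+). The highest value is that of bulk control 2, the library with high levels of short transcripts. EXOSC8 (RRP43; chromosome 13, 37000786 to 37009614, plus strand) split the trunc/+ clones, at 56.0, 30.1 and 60.6 FPKM. Its WT clones read 44.5 and 41.2 and its -/+ clones 51.3, 52.6 and 48.6, all of them between the low and the high trunc/+ clones. The mean difference of trunc/+ from WT was 0.13 on the log2 scale, 0.44 without trunc/+ clone 2 and -0.06 without clone 3. Bulk controls spread from 35.1 to 84.9 FPKM for EXOSC8, around the 35.1 to 45.1 of bulk CRISPR.

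EXOSC10 (chromosome 1, 11066619 to 11099869, minus strand), the catalytic nuclear subunit, had a higher mean in bulk CRISPR than in bulk control. The cap subunit EXOSC1 did too, while the other 8 members had a lower one. Bulk controls read 25.8, 9.31 and 28.3 FPKM and bulk CRISPR libraries 28.9, 28.5 and 31.3. All bulk CRISPR libraries were higher, where 21.8% of all genes were. The lowest of them exceeded the highest control by less than 1 FPKM, and the mean difference rested on bulk control 2. WT clones read 31.1 and 38.0, -/+ clones 38.7, 34.4 and 32.0, and trunc/+ clones 33.4, 33.2 and 26.9, and these groups overlapped. As a share of the summed FPKM of the 10 genes, EXOSC10 made up 3.56% ± 2.10 (SD, n = 3) of the bulk controls, 6.94% ± 0.589 after bulk CRISPR (n = 3), and 8.04% ± 1.33 (WT, n = 2), 8.36% ± 1.01 (-/+, n = 3) and 8.52% ± 1.68 (trunc/+, n = 3) in clones. EXOSC8, EXOSC9 and EXOSC10 each overlap another gene on the opposite strand (SUPT20H, CCNA2 and EXOSC10-AS1). EXOSC4, EXOSC5 and EXOSC10 each overlap an unnamed gene model on the opposite strand. The stranded libraries can separate these if the counting used strand. EXOSC4 also overlaps MIR6847 and an unnamed gene model on its own strand, where strand cannot separate reads.

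**Figure D2:**
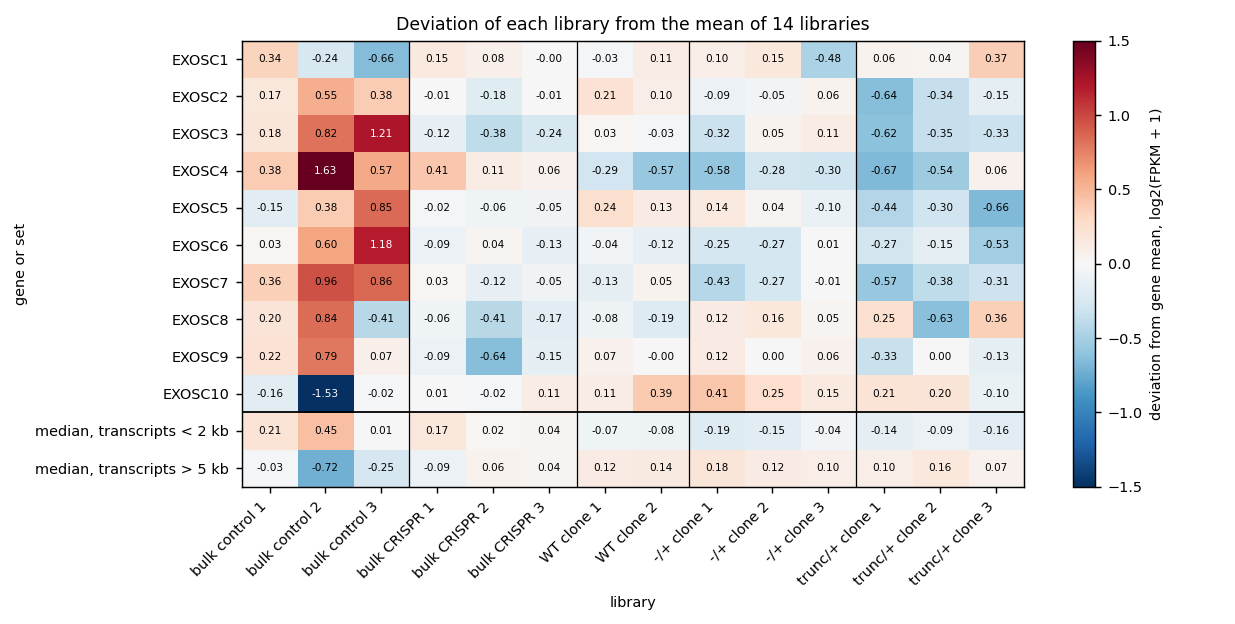
Deviation of each library (x axis) from the mean of the 14 libraries, on the log2(FPKM + 1) scale, for each of the 10 genes (y axis) and, under the line, for the median gene with transcripts under 2000 and over 5000 bases. Colours and printed values give the deviation. Bulk control 2 stands out with EXOSC4 at 1.63 and EXOSC10 at -1.53, and with short transcripts at 0.45 and long ones at -0.72.

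The study used bulk editing to ask what strong loss of ZC3H18 does. Comparing bulk CRISPR with bulk control, 8 of the 10 exosome genes had a lower mean log2 value and 2 (EXOSC1 and EXOSC10) a higher one, but none passed the test. The largest differences were a log2 fold change of -0.99 for EXOSC3 (SE 0.28, 95% interval -1.63 to -0.35, adjusted p = 0.146 by limma) and -0.77 for EXOSC7 (SE 0.22, -1.28 to -0.26, adjusted p = 0.150). EXOSC4, EXOSC6 and EXOSC9 followed at -0.66, -0.66 and -0.65 (adjusted p = 0.285, 0.254 and 0.220 by limma). EXOSC2, EXOSC8 and EXOSC5 were at -0.43, -0.42 and -0.41, with intervals that include 0. EXOSC1 was at 0.26 (-0.36 to 0.89) and EXOSC10 at 0.60 (-0.28 to 1.49). The median of the 10 was -0.54, and that of all 12114 genes tested was 0.18, with 35.3% of all genes below 0.

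By limma 0 of the 10 members were called at an adjusted p under 0.05, where 0.347% of all genes tested were called. At an unadjusted p under 0.05 there were 3 members, EXOSC3, EXOSC7 and EXOSC9, all lower, where 6.93% of all genes were lower and 14% higher by that rule. The libraries did not overlap for EXOSC2, EXOSC3, EXOSC7 and EXOSC9 (lower, 4 of 10), where 10.4% of all genes were lower without overlap. EXOSC10 was higher without overlap (1 of 10), where 21.8% of all genes were. Relative to the median of all genes, which median centring sets to 0, EXOSC3 was at -1.17 and EXOSC7 at -0.95.

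The call depended on the fit and on single bulk controls. EXOSC3 and EXOSC7 passed the threshold (adjusted p = 0.0467 and 0.0494, limma) when all 14 libraries shared 1 fit, with the same fold changes. In that fit 157 genes were higher and 144 lower in place of 23 and 19. It pools the spread of all groups, while the bulk controls spread most (median SD 0.44 against 0.13 to 0.21). These p-values may therefore understate the spread of the bulk controls. Both genes also passed when bulk control 1 was left out (-1.26 and -0.96, adjusted p = 0.0311 and 0.0319 by limma). There 944 genes were higher and 378 lower. Without bulk control 2 they were at -0.95 and -0.66 (adjusted p = 0.206 and 0.196), and with a correction for transcript length and GC content at -1.06 and -0.60 (adjusted p = 0.113 and 0.214). EXOSC10 went from 0.60 to 0.12 and EXOSC4 from -0.66 to -0.28 without bulk control 2, and EXOSC4 was at -0.33 with the length and GC correction. EXOSC5 went from -0.41 to -0.16 without bulk control 3, and EXOSC9 from -0.65 to -0.44 without bulk control 2. EXOSC8 went from -0.42 to -0.11 without bulk control 2 and to -0.73 without bulk control 3, and EXOSC6 from -0.66 to -0.37 without bulk control 3. EXOSC1 went from 0.26 to 0.03 without bulk control 3 and to 0.52 without bulk control 1. Summed marker levels also differed without overlap in this comparison. The 7 melanocyte markers summed to 13.9 to 29.8 FPKM in bulk control and 32.9 to 39.3 in bulk CRISPR, and 4 fibroblast markers to 1.85 to 2.18 and 5.20 to 6.80, with COL1A2 listed at 0 in these libraries. SOX10 (mean 16.6 and 30.8) and LUM (1.56 and 5.42) made up most of these sums, while S100B (1.29 and 0.664) and PMEL (0.336 and 0.278) had lower means in bulk CRISPR. Their part in the differences of the members was not tested.

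The trunc/+ clones were compared with WT clones to ask what a truncated ZC3H18 protein beside a normal allele does. Of the 10 genes, 7 had a lower mean, and EXOSC5 (-0.65, SE 0.15, 95% interval -0.99 to -0.31) and EXOSC2 (-0.53, SE 0.16, -0.91 to -0.16) differed most. Their unadjusted p-values were 0.00248 and 0.0113 and their adjusted p-values 0.536 and 0.589 by limma. EXOSC3 (-0.43), EXOSC7 (-0.38), EXOSC6 (-0.23), EXOSC9 (-0.19) and EXOSC10 (-0.14) were also below 0, and EXOSC8 (0.13), EXOSC1 (0.12) and EXOSC4 (0.05) above it. The median of the 10 was -0.21, that of all 12904 genes tested -0.02, with 52.9% of genes below 0. By limma 0 of 10 members were called, where 0.00775% of all genes were. At an unadjusted p under 0.05 there were 3 members (EXOSC2, EXOSC3 and EXOSC5), all lower, where 4.3% of all genes were lower and 3.29% higher. Every trunc/+ clone was below both WT clones for 5 of 10 members (EXOSC2, EXOSC3, EXOSC5, EXOSC6 and EXOSC7), where 15.4% of all genes were, and 0 members were higher without overlap, where 10.6% were. Leaving out each clone in turn, EXOSC5 lay between -0.73 and -0.55. EXOSC2 ranged from -0.65 to -0.40. EXOSC6 went from -0.23 to -0.13 without trunc/+ clone 3, and EXOSC9 from -0.19 to -0.10 without trunc/+ clone 1.

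The -/+ clones were compared with WT to ask about the loss of 1 allele without a truncated protein. Here the 10 genes lay close to WT, from -0.20 (EXOSC7) to 0.24 (EXOSC8), with a median of -0.07 (-0.02 over all genes) and an adjusted p of 1 for each by limma. A mean below 0 was found for 6 of 10, where 53.2% of all genes had one. The intervals did not exclude sizeable changes, as for EXOSC5 (-0.15, 95% interval -0.49 to 0.19) and EXOSC3 (-0.05, -0.44 to 0.34). By limma 0 of 10 members were called, where 0.00775% of all genes were, and 0 members had an unadjusted p under 0.05, where 0.713% of all genes were higher and 1.11% lower. EXOSC2 was lower in every clone, where 8.44% of genes were, and EXOSC8 was higher in every clone, where 6.16% were.

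The trunc/+ and -/+ clones, which both keep 1 normal allele, were then set against each other. EXOSC5 was lower in trunc/+ (-0.50, SE 0.13, 95% interval -0.80 to -0.19, unadjusted p = 0.00586 and adjusted p = 0.785 by limma), as were EXOSC3 (-0.38, -0.73 to -0.03) and EXOSC2 (-0.35, -0.69 to -0.02). By limma 0 of 10 members were called, where 0% of 12904 genes were, and 3 members (EXOSC2, EXOSC3 and EXOSC5) had an unadjusted p under 0.05, where 3.16% of all genes were lower and 3.12% higher by that rule. A mean below 0 was found for 8 of 10, where 50.2% of all genes had one. EXOSC2, EXOSC3, EXOSC5 and EXOSC9 were lower in every trunc/+ clone than in every -/+ clone (4 of 10), where 6.45% of all genes were, and 0 were higher without overlap, where 4.79% were. This comparison shares the trunc/+ clones with the comparison to WT, so these counts are not independent of those above. EXOSC1 was at 0.23 (-0.22 to 0.68), and EXOSC4 at 0.01. EXOSC2 went to -0.22 without trunc/+ clone 1, and EXOSC1 to 0.03 without -/+ clone 3.

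**Figure D3:**
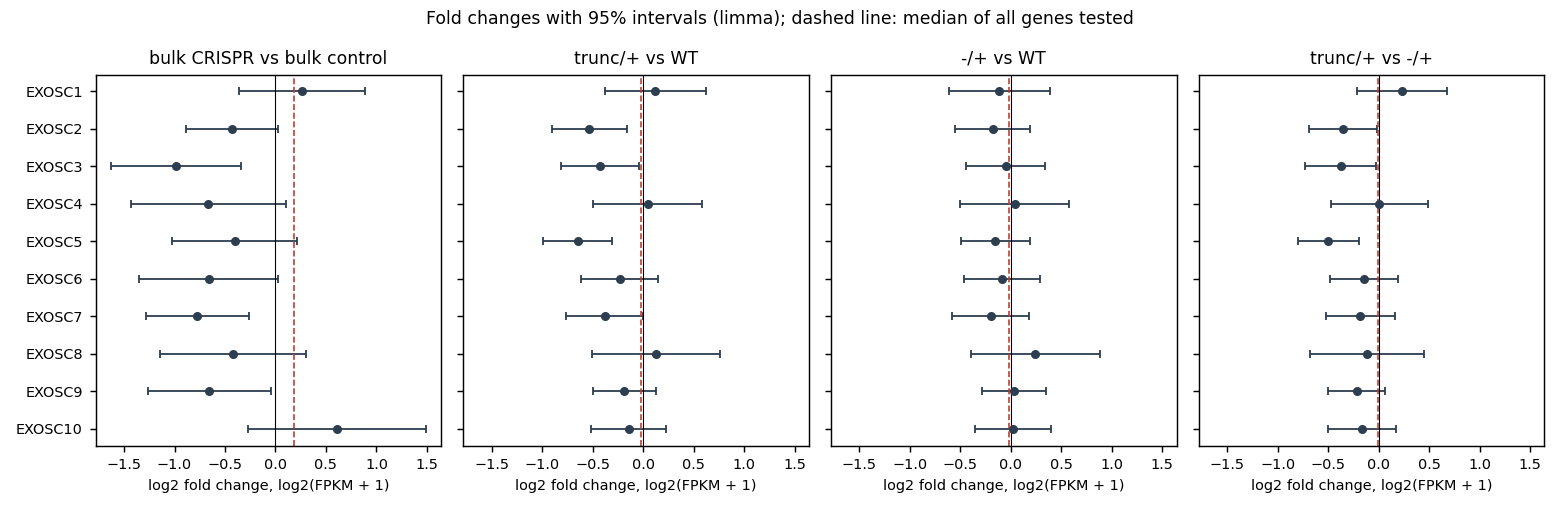
Log2 fold changes of the 10 genes (points, x axis, log2(FPKM + 1) scale) with 95% intervals from limma, 1 panel for each of the 4 comparisons. The dashed line is the median of all genes tested (0.18 in the bulk comparison and near 0 in the others). EXOSC3 and EXOSC7 lie lowest in the bulk panel, EXOSC5 and EXOSC2 in the trunc/+ against WT panel, and all 10 intervals include 0 for -/+ against WT.

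The summed level of the 10 genes was 648 ± 145 FPKM (SD, n = 3) in the bulk controls, 427 ± 31.3 in bulk CRISPR (n = 3), 431 ± 10.97 in WT (n = 2), 420 ± 11.1 in -/+ (n = 3) and 370 ± 33.4 in trunc/+ (n = 3). Bulk control libraries (501 to 792 FPKM) did not overlap with bulk CRISPR (399 to 461), and trunc/+ (346 to 408) lay below WT (423 to 438) and met -/+ (408 to 430). The cap made up 26.9% to 30.1% of the sum by group mean and the ring 61.8% to 69.0%. Shares of single members varied more, from 15.2% (WT) to 25.8% (bulk control) for EXOSC4 and from 4.17% (bulk control) to 8.33% (trunc/+) for EXOSC1. FPKM totals over all genes were themselves highest in bulk control 2 (641536) and 438308 to 510822 in the others. On the TPM scale, which sets each library to the same total, EXOSC3 and EXOSC7 were at -0.89 and -0.68 in the bulk comparison.

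Whether the effect of bulk CRISPR differed from that of the clone genotypes was tested as a difference of effects in a fit over all libraries. That fit pools the spread of all groups, so its intervals and p-values may understate the spread of the bulk controls. For bulk CRISPR minus trunc/+, 0 of 10 members were called by limma, where 0.0446% of 13439 genes were, and 0 had an unadjusted p under 0.05, where 6.14% of genes were higher and 2.71% lower. EXOSC10 (0.75, 95% interval -0.25 to 1.75) and EXOSC4 (-0.71, -1.66 to 0.24) differed most, and EXOSC2 (0.10, -0.43 to 0.63) least. Both of the largest differences shrank without bulk control 2, to 0.27 for EXOSC10 and -0.33 for EXOSC4. For bulk CRISPR minus -/+, 0 of 10 were called, where 0.0298% of genes were (0.00744% higher and 0.0223% lower). EXOSC3 (-0.94, -1.68 to -0.19, adjusted p = 0.575 by limma) and EXOSC9 (-0.68, -1.36 to -0.01, adjusted p = 0.575) had an unadjusted p under 0.05, where 2.54% of genes were lower and 5.99% higher by that rule. Without bulk control 1, EXOSC3 passed the threshold in this difference (-1.21), where 160 genes were higher and 73 lower in place of 1 and 3.

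Other genes of the pathway were followed from lists of names. The catalytic partners DIS3, the main nuclear exonuclease and endonuclease of the exosome, and DIS3L, its cytoplasmic counterpart, were at 0.39 (SE 0.27) and 0.02 (SE 0.24) in the bulk comparison, at -0.04 and 0.12 in trunc/+ against WT, and at 0.39 and 0.05 in -/+ against WT. In trunc/+ against -/+ they were at -0.43 and 0.07. Of the nuclear cofactors, C1D, which binds EXOSC10, was at -0.88 (SE 0.55) in the bulk comparison, MPHOSPH6 (MPP6) at 0.38 and MTREX at 0.15. In trunc/+ against WT, MTREX was at -0.42 (SE 0.14, unadjusted p = 0.0175 and adjusted p = 0.612 by limma). It was below WT in every clone, where 15.4% of all genes were. For the adaptors, ZCCHC8 and RBM7 of NEXT were at 0.36 and 0.73, ZFC3H1 and PABPN1 of PAXT at 0.59 and 0.01, and ZCCHC7 and TENT4B of TRAMP at 0.46 and 0.48 in the bulk comparison, with an adjusted p of at least 0.278. In trunc/+ against WT they ranged from -0.26 (ZCCHC8) to 0.04 (PABPN1). The SKI complex, the cytoplasmic helicase of the exosome, with its partner HBS1L, was at -0.16 (WDR61) to 0.60 (TTC37) in the bulk comparison and at -0.30 (HBS1L) to -0.04 (TTC37) in trunc/+ against WT. Besides MTREX, 1 NEXT gene and 1 SKI list gene were lower without overlap in trunc/+ against WT. In -/+ against WT 1 nuclear cofactor was lower and 1 of DIS3 and DIS3L higher without overlap, where 8.44% and 6.16% of all genes were. The 2 TRAMP genes were higher without overlap in the bulk comparison, where 21.8% were. In trunc/+ against -/+ 1 SKI list gene was lower without overlap, where 6.45% were. None of these 15 genes was called by limma in any of the 4 comparisons.

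The factors that process ribosomal RNA, a main nuclear task in which the exosome takes part, had mostly lower means in trunc/+ than in WT and -/+, as the core did. By limma 0 of 53 were called in each of the 4 comparisons. Against WT, 50 of 53 had a mean below 0 in trunc/+ (median -0.27), where 52.9% of all genes did. 24 of 53 were below WT in every trunc/+ clone, where 15.4% of all genes were, and 7 had an unadjusted p under 0.05 and were lower, where 4.3% were. FBL (fibrillarin, the methyltransferase of box C/D small nucleolar particles) was lowest at -0.78 (SE 0.12, unadjusted p = 1.8e-04 and adjusted p = 0.396 by limma). The highest was PPAN, which acts in large-subunit assembly, at 0.16 (SE 0.97). Against -/+, 49 of 53 were below 0 in trunc/+ (median -0.27), where 50.2% of all genes were, and 12 were lower without overlap, where 6.45% of all genes were. In -/+ against WT 29 of 53 were below 0 (median -0.02), where 53.2% of all genes were. There 2 were lower without overlap and 0 higher, where 8.44% of all genes were lower and 6.16% higher. In the bulk comparison 33 of 53 were below 0 (median -0.15), where 35.3% of all genes were. There 16 were lower without overlap and 4 higher, where 10.4% of all genes were lower and 21.8% higher. PPAN was lowest there at -1.93 (SE 0.47, adjusted p = 0.123 by limma), with a value that is uncertain because a readthrough gene shares its exons.

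A second barrel-shaped assembly, the core proteasome with 14 ring subunit genes, was followed for comparison. In trunc/+ against WT 12 of 14 were below 0 with a median of -0.10, where 52.9% of all genes were below 0. There 3 were lower without overlap and 1 higher, where 15.4% of all genes were lower and 10.6% higher. Against -/+, 13 of 14 were below 0 (median -0.14), where 50.2% of all genes were, with 4 lower without overlap, where 6.45% were. In -/+ against WT 3 of 14 were below 0 (median 0.05), where 53.2% of all genes were, and in the bulk comparison 6 of 14 (median 0.06), where 35.3% were. Lower means in trunc/+ were thus also found in a list with no part in RNA decay, at smaller medians than in the exosome core (-0.21 and -0.17) and the ribosomal RNA factors (-0.27 and -0.27). PSMA4 (-0.38) was lowest against WT and PSMB2 (-0.40) against -/+, and 0 of 14 were called by limma in each comparison.

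**Figure D4:**
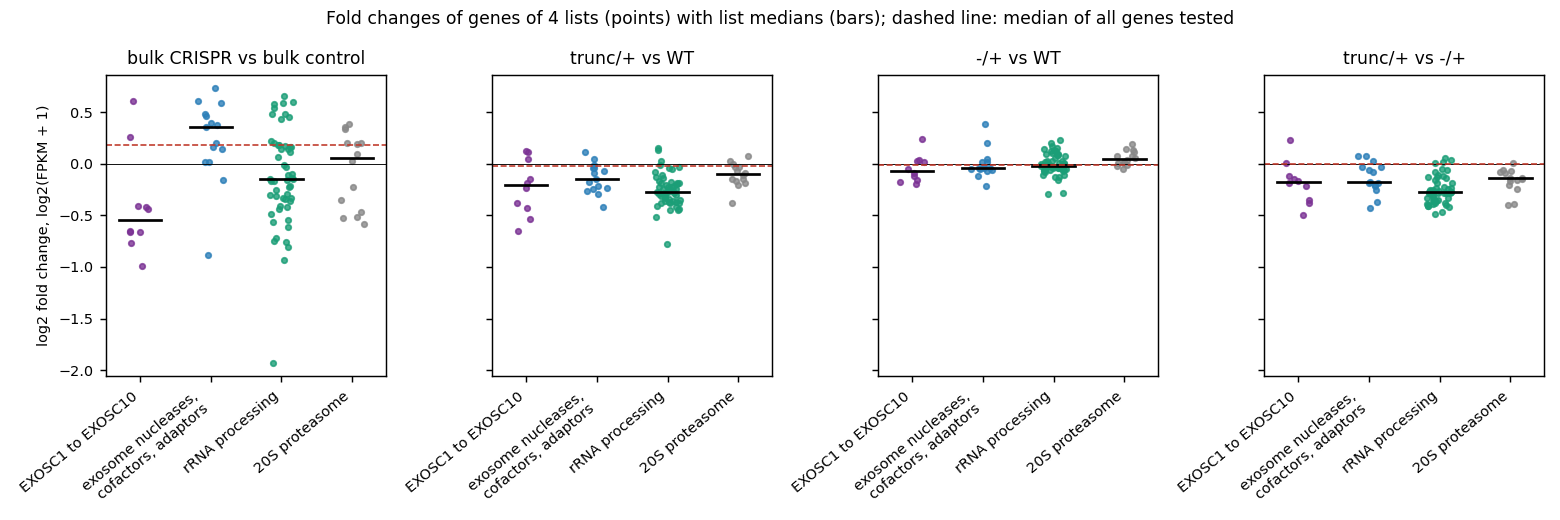
Log2 fold changes (y axis, log2(FPKM + 1) scale) of the genes of 4 lists (points) in the 4 comparisons (panels), with list medians as black bars and the median of all genes tested as a dashed line. In the trunc/+ panels the 53 ribosomal RNA factors centre at -0.27 and the 10 exosome genes at -0.21 and -0.17, and in -/+ against WT the medians lie at -0.02 and -0.07.

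By likeness of profile over the 14 libraries, the genes closest to the mean of the 10 members among 9661 expressed genes were SLC25A3, a mitochondrial phosphate carrier, C11orf58, GTPBP4, a GTPase of large ribosomal subunit assembly, CMC1 and CCT8, a chaperonin subunit, at a root mean square difference of 0.08 to 0.11 on the log2 scale. Those closest to EXOSC4, the member with the widest range, were NDUFB7, COX6C, NDUFB9, ZNF593 and ATP5MG (0.14 to 0.18), of which 4 encode subunits of the respiratory chain or ATP synthase. Among the members EXOSC3 and EXOSC7 were nearest to each other (0.18), and EXOSC10 was farthest from its nearest, EXOSC1 (0.48). These libraries share the deviations of bulk controls 2 and 3, which enter each of these differences.

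The transposable element (TE) tables give a second readout of the same loci, fragments on the strand of the gene over TE copies inside its introns. EXOSC10 held 48 such copies, EXOSC7 39, EXOSC5 17, EXOSC1 16, EXOSC9 15, EXOSC2 9, EXOSC3 and EXOSC8 2 each, and EXOSC4 and EXOSC6 0. EXOSC10 had the most fragments, from 110 in bulk control 2 to 577 in trunc/+ clone 1, or 5.94 to 18.3 per 1000000 aligned fragments (CPM). Its log2 fold changes were 0.33 in the bulk comparison, 0.19 for trunc/+ and 0.12 for -/+ against WT and 0.06 between trunc/+ and -/+, and bulk control 2 had the lowest value here too.

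EXOSC7 went the opposite way to its message in the bulk comparison. Its intronic TE copies held 4, 4 and 6 fragments in the bulk controls (0.150, 0.216 and 0.384 CPM) and 18, 40 and 34 in bulk CRISPR (0.641, 1.28 and 1.06 CPM). All bulk CRISPR libraries were higher, with a log2 fold change of 2.02 (SE 0.73), an unadjusted p of 0.0103 and an adjusted p of 0.249 by edgeR. The share of all genes without overlap was not counted for intronic fragments, in bulk cells or in clones. In the same libraries the FPKM of EXOSC7 was lower without overlap (-0.77). Counting only uniquely mapped fragments gave 1.99, DESeq2 2.15 (adjusted p = 0.102) and TE copies anywhere in the gene 1.40, with an adjusted p of 0.102 to 0.458 over all settings, and leaving out each library 1.73 to 2.44. In the clones the values were 0.794 and 0.527 CPM for WT, 1.05, 0.640 and 0.712 for -/+ and 0.273, 0.574 and 0.569 for trunc/+, so that trunc/+ was below -/+ in every clone (-0.76, adjusted p = 0.996 by edgeR). The bulk controls were thus lower than 10 of the other 11 libraries and overlapped with 1, trunc/+ clone 1. These are counts of few fragments, and intervals at this depth are wide.

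By edgeR 0 of the 5 members with enough fragments in bulk cells (EXOSC1, EXOSC2, EXOSC5, EXOSC7 and EXOSC10) were called, where 0.357% of 8685 genes were (0.173% higher and 0.184% lower), and 1 (EXOSC7) had an unadjusted p under 0.05 and was higher, where 4.77% were higher and 7.5% lower. In the clones 0 of the 7 members tested (those 5, EXOSC3 and EXOSC9) were called in each of the 3 comparisons, where 0% of 9494 genes were, and 0 had an unadjusted p under 0.05. By that rule 3.11% of genes were higher and 1.29% lower in trunc/+ against WT, 1.8% and 0.4% in -/+ against WT, and 2.11% and 2.28% in trunc/+ against -/+. DESeq2 also called 0 members in all 4. EXOSC1 was at 0.16, 0.03, -0.19 and 0.22 in the 4 comparisons, and EXOSC2 at 0.46, -0.48, -1.25 and 0.77, with an SE of 0.76 to 1.03.

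**Figure D5:**
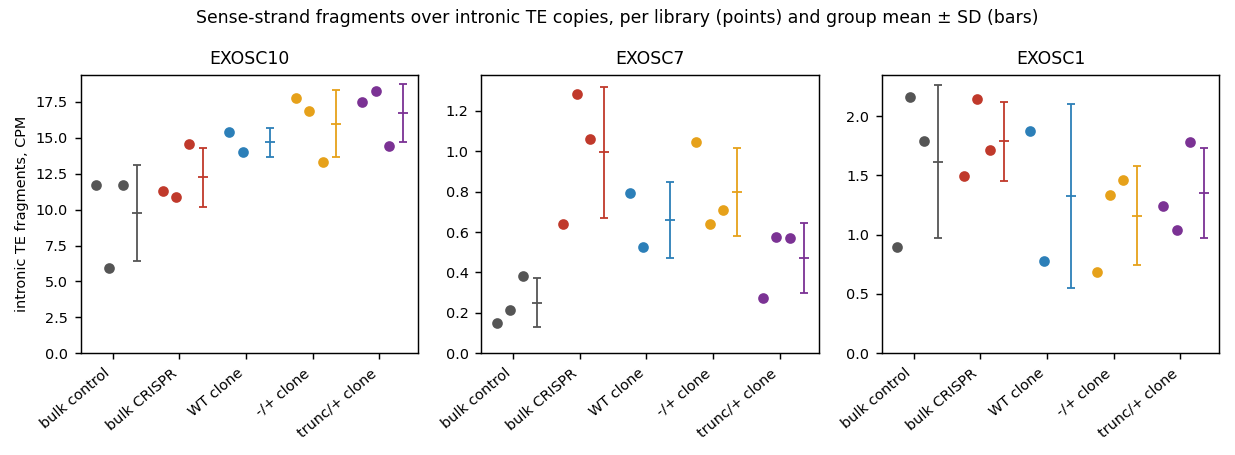
Fragments over intronic TE copies of EXOSC10, EXOSC7 and EXOSC1 on the strand of the gene (y axis, CPM, from 0), by group on the x axis. Points are libraries and bars mean ± SD (n = 3, WT n = 2). EXOSC7 lies at 0.150 to 0.384 CPM in the bulk controls and at 0.641 to 1.28 in bulk CRISPR.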

How the data were processed

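RNA from A375 cells was sequenced in 14 polyA-selected, stranded, paired-end libraries. The authors deposited, for each gene, FPKM and TPM values and coverage from StringTie. The authors also deposited, for each TE copy and transcript strand, estimated counts (reads that map to several copies shared out by expectation maximization) and counts of uniquely mapped fragments from SQuIRE on hg38, after trimming with cutadapt 4.6. Coverage, a signal in the deposited files, was listed but not tested. 0 value columns lacked a sample.

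Groups were taken from the genotype labels. FPKM was summed per gene name, and limma 3.58.1 (trend, R 4.3.3) was fitted on log2(FPKM + 1) over all genes with FPKM of at least 1 in at least 3 bulk libraries, or in at least 2 clones. Such fold changes understate changes of low genes. The 6 bulk libraries had 1 fit and the 8 clones another, since there were 2 WT clones. TE copies that touch no exon (GENCODE release 44) and lie in 1 gene only were summed per gene on its strand, rounded and tested with edgeR 4.0.16 (quasi-likelihood, library size = aligned fragments, minimum count 10). P-values were adjusted by Benjamini-Hochberg over all features of a comparison, two-sided, with 0.05 as threshold. Tests were checked on simulated data in which all groups had an equal spread. The check did not cover the wider spread of the bulk controls. Of the gene names shared with GENCODE, 24021 of 24056 (99.85%) had overlapping coordinates and equal strand in both.

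The 10 genes and all lists were chosen with earlier results of these data known. Named were all 10 genes, ZC3H18, any list gene past the threshold, the list genes farthest from 0, all exosome nucleases and adaptors, and the 5 genes nearest in profile. The other adaptor genes beyond the 2 farthest were chosen after their values were seen. Alternatives were another pseudocount (0.1), no filter, quantile scaling, median centring, TPM, array weights, a replicate block, a common fit, leaving out each library and, added after seeing the data, a correction for length and GC content. For TE fragments they were unique counts, TMM, DESeq2 1.42.0, no filter and TE copies anywhere in the gene.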

Additional observations from a re-analysis of the deposited data

How the results depend on the processing

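By limma, 42 genes were called in the bulk comparison. The count was 20 with a pseudocount of 0.1, 16 with no filter, 73 with quantile scaling, 26 on TPM, 19 with array weights, 301 in the fit of all 14 libraries and 75 with the length and GC correction, and 5 to 1322 with a library left out (1322 for bulk control 1, then 18 and 17 for the other controls, and 6, 5 and 10 for bulk CRISPR 1, 2 and 3). Members called went from 0 to 2 in the fit of all 14 libraries and 0 to 2 with a library left out. In trunc/+ against WT, and likewise in -/+ against WT, 1 gene was called, against 0 with the pseudocount, 3 with no filter, 2 with median centring, 2 with array weights, 0 in the fit of all 14 libraries, 0 with length and GC correction and 0 to 1 with a clone left out. For the differences of effects, 6 genes (bulk CRISPR minus trunc/+) became 1 and 4 genes (minus -/+) became 2 with the pseudocount, and 2 to 238 and 3 to 233 with a library left out, with 0 to 1 member called in the latter. For intronic TE fragments in bulk cells, 31 genes became 129 by DESeq2, 167 with no filter, 57 with TE copies anywhere and 3 to 551 with a library left out. In trunc/+ against WT 0 became 5 by DESeq2 and 64 with no filter, in -/+ against WT 8 with no filter, and in trunc/+ against -/+ 5 by DESeq2, 38 with no filter and 0 to 1 with a clone left out. The number of genes tested also differed between some settings, and the cause of these changes was not tested.

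With a replicate block the counts were 220 (bulk), 0 (trunc/+ against WT) and 0 (-/+ against WT) by limma and, for intronic TE fragments, 1 (trunc/+ against WT) and 1 (trunc/+ against -/+) by edgeR. The replicate numbers were not taken to pair the samples. Same-numbered bulk libraries correlated at -0.16, -0.205 and 0.174 in their deviations from the group means, and clones at -0.551 to 0.509. With so few libraries per group, these correlations cannot decide whether samples were paired. The block called 0 members and turned EXOSC4 to -0.0859 in trunc/+ against WT and to -0.0939 in -/+ against WT, and intronic EXOSC1 to -0.16 (trunc/+ against WT) and EXOSC9 to 0.043 (-/+ against WT).

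Differences near 0 changed sign. With array weights, EXOSC4 went to -0.0222 (trunc/+ against WT) and -0.12 (trunc/+ against -/+), EXOSC3 to 0.0093 and EXOSC9 to -0.0005 (-/+ against WT). With the length and GC correction, EXOSC4 went to -0.0284 (trunc/+ against -/+). With a library left out, trunc/+ against WT ranged from -0.18 to 0.19 for EXOSC4 and -0.0565 to 0.44 for EXOSC8. In -/+ against WT the ranges were -0.23 to 0.0876 (EXOSC1), -0.12 to 0.16 (EXOSC10), -0.13 to 0.0817 (EXOSC3), -0.10 to 0.18 (EXOSC4) and -0.0045 to 0.064 (EXOSC9). In trunc/+ against -/+ they were -0.21 to 0.15 (EXOSC4) and -0.30 to 0.19 (EXOSC8), and for bulk CRISPR minus trunc/+ -0.0925 to 0.40 (EXOSC1), -0.031 to 0.21 (EXOSC2) and -0.0138 to 0.49 (EXOSC5).

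For intronic TE fragments with TE copies anywhere in the gene, EXOSC2 went to -0.53 (bulk) and -0.25 (trunc/+ against -/+), EXOSC1 to -0.0421 (trunc/+ against WT), EXOSC7 to -0.0778 (-/+ against WT), and EXOSC10 to -0.0437 and EXOSC5 to 0.25 (trunc/+ against -/+). EXOSC1 was also -0.0286 with TMM and -0.0321 with DESeq2 (trunc/+ against WT). With a library left out, EXOSC1 ranged from -0.15 to 0.43 (bulk), -0.47 to 0.80 (trunc/+ against WT), -0.69 to 0.58 (-/+ against WT) and -0.0497 to 0.43 (trunc/+ against -/+). EXOSC5 ranged from -0.95 to 0.26, -0.73 to 0.48 and -0.55 to 0.0611, and EXOSC9 from -0.96 to 0.0943, -0.76 to 0.29 and -0.50 to 0.16, in these 3 clone comparisons. In trunc/+ against -/+, EXOSC10 ranged from -0.0495 to 0.16 and EXOSC3 from -0.52 to 0.44. Of the single-gene values under other settings, 573 kept direction and call, 17 changed sign and 2 gained a call. Depth limits the intronic values, which rest on few fragments except in EXOSC10.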
